A study of Mus musculus with 675 samples.

Results

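Among 675 single cells sequenced from the mouse aorta, 548 met a rule for smooth muscle, and 41.1% of those carried Hox genes of paralog groups 5 to 9 at a summed level of at least 20 CPM (the counts of a gene divided by all counts of the cell, times 1000000). These cells are 33.3% of all cells sequenced. A cell was taken as smooth muscle when it had at least 1000 CPM of Myh11, the smooth muscle myosin heavy chain, and at least 500 CPM of Cnn1, calponin. It also had to have under 100 CPM of the endothelial cadherin Cdh5 and fewer than 2 of the fibroblast genes Dcn, Lum, Serpinf1 and Pi16 at 100 CPM or more. The Hox sum ran over 15 genes: Hoxa5, Hoxa6, Hoxa7, Hoxa9, Hoxb5, Hoxb6, Hoxb7, Hoxb8, Hoxb9, Hoxc5, Hoxc6, Hoxc8, Hoxc9, Hoxd8 and Hoxd9. The cells at or above 20 CPM are called Hox-positive below, and they are compared with the 31.9% of smooth muscle cells in which the sum was 0, called Hox-zero (88 cells of pool A and 87 of pool B, the pools being described next). The remaining 27.01% of smooth muscle cells had a sum above 0 and under 20 CPM and are called Hox-low. The cells were thus chosen by their measured Hox counts, so every statement on the 15 genes is a description and carries no test.

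The cells came from C57BL/6 males, 10 weeks old in the sample labels and between 8 and 21 weeks in the design text of the series. They were sorted singly into multi-well plates and sequenced by Smart-seq2, which reads full-length cDNA and adds no molecular identifiers. One plate, with 54.4% of the cells, came from 2 mice (pool A), and another plate from 2 other mice (pool B), so plate and mice cannot be told apart. The tissue label is aorta, although the extraction protocol speaks of dissociated hearts, and the position of a cell along the vessel is not in the labels.

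Hox genes encode homeodomain transcription factors that lie in 4 chromosomal clusters, A to D. Within a cluster, the genes of low group number are expressed from anterior levels of the body axis onwards and those of higher number begin further back, and many adult mesenchymal cells keep the Hox pattern of the level at which they arose. In the aorta, smooth muscle of the ascending part and arch derives largely from neural crest and second heart field, and that of the descending part from somitic and other mesoderm.

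The part of the genome around 2 of the summed genes and 1 gene that differed between the classes is shown first. Promoter windows of RefSeq (GRCm38.p6) from 250 bases before to 50 bases after the gene start were read for Hoxa5 and Hoxb8, the 2 Hox genes given as markers of the population, and for Hand2, the called gene that differed most between the classes among those with a mean of at least 20 CPM (below). Capitals mark matches, on either strand, of the CCAAT box (CCAAT), the TATA box (TATAAA), a homeodomain core (TAATTA), a Cdx core (TTTATNG) and a Hox-Pbx core (TGATNNAT); Cdx proteins are homeodomain factors upstream of the trunk Hox genes, and Pbx proteins are Hox cofactors.
Hoxa5, chr6:52204538-52204837, minus strand: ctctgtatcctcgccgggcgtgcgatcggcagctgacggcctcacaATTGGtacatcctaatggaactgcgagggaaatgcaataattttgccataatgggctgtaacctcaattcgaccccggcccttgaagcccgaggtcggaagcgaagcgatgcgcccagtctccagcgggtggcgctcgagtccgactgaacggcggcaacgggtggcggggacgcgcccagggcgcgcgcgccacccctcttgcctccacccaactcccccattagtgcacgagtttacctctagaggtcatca
Hoxb8, chr11:96281655-96281954, plus strand: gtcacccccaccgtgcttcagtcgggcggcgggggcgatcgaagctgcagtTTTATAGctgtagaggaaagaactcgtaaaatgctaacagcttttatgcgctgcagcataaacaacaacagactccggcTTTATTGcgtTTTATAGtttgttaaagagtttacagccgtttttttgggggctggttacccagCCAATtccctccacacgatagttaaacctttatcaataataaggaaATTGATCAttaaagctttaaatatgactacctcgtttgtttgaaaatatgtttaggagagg
Hand2, chr8:57320733-57321032, plus strand: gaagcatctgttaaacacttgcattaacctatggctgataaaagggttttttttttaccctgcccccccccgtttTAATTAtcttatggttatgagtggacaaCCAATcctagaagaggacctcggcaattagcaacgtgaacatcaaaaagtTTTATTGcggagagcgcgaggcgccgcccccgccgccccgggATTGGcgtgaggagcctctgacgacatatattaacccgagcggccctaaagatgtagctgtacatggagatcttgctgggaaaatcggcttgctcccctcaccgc
The Hoxb8 window held 3 Cdx matches, 2 of them overlapping a TATA match, as well as 1 CCAAT and 1 Hox-Pbx match. The Hoxa5 window held 1 CCAAT match, and the Hand2 window held 2 CCAAT matches, 1 homeodomain match and 1 Cdx match. Over 32851 promoter windows of the same length, 37.4% held a CCAAT match, 13.6% a TATA match, 5.29% a homeodomain match, 10.9% a Cdx match and 8.85% a Hox-Pbx match. A match describes the letters of the window and is not a binding site. Of the 15 summed genes, 7 were in the promoter table.

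Hox-positive cells made up 49.2% of smooth muscle cells in pool A (exact 95% interval 43.3% to 55.01%) and 31.6% in pool B (80 cells, 25.9% to 37.7%). The 2 pools, each a single sample, are the only replicates, so this difference between pools was not tested, and the intervals cover counting error only. Among positive cells the Hox sum ranged from 21.99 through a median of 204.1 to 1111 CPM in pool A, and from 20.3 through a median of 160 to 852 CPM in pool B. These sums rested on a median of 62 counts per cell in pool A and 52.5 in pool B. Hox-low cells had a median sum of 3.84 CPM in pool A and 3.92 in pool B, which was a median of 1 count in each pool. Around the threshold, 14 cells in pool A and 4 in pool B lay from 10 to 20 CPM, and 9 and 9 from 20 to 50 CPM. The bins used here widen with the sum, so their counts do not show a gap between low and high sums. At the threshold, the 3 cells just below it in pool A had 17.9, 19.7 and 19.8 CPM and the 3 just above it had 21.99, 22.9 and 22.9 CPM. In pool B the 3 just below had 10.9, 11.98 and 12.6 CPM and the 3 just above had 20.3, 20.6 and 22.7 CPM.

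**Figure D1:**
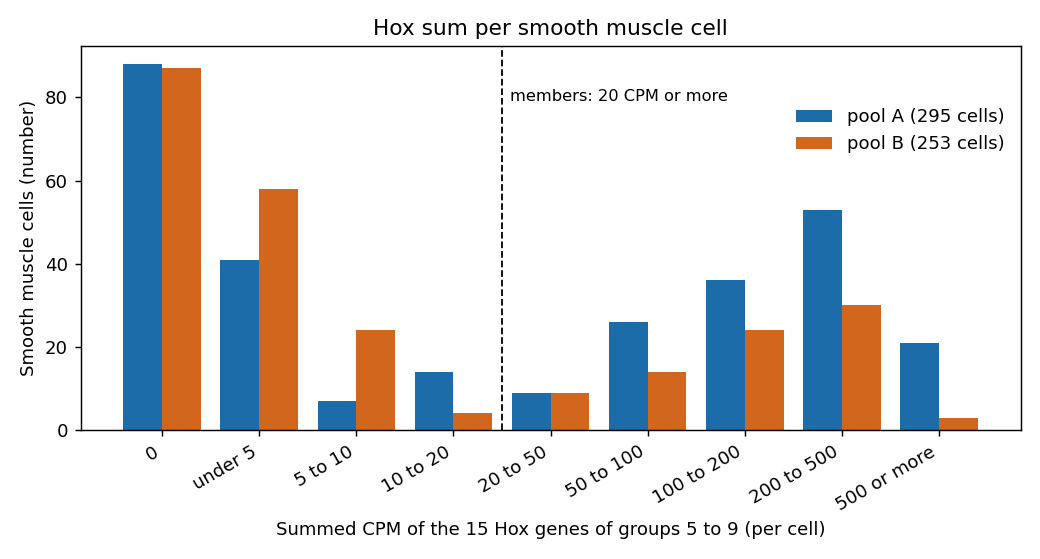
Number of smooth muscle cells (y axis) by the summed CPM of the 15 Hox genes per cell (x axis, bins of unequal width), with pool A in blue and pool B in orange. The dashed line is the 20 CPM threshold. Pool A had 14 cells from 10 to 20 CPM, while its much wider bin from 200 to 500 CPM held 53. For pool B the same bins held 4 cells and 30 cells. Because bin widths differ, the bar heights do not show a gap at the threshold.

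The median count per cell was 297056 in Hox-positive and 293276 in Hox-zero cells of pool A, and 348004 and 310846 in pool B. Positive cells had a median of 5441 detected genes in pool A and 6525.5 in pool B, against 5352 and 6151 in Hox-zero cells. The mitochondrial share was 1.97% against 1.89% in pool A and 1.72% against 1.79% in pool B. Thinning every cell to 100000 counts, which left out 2 cells of pool A and 4 of pool B, gave positive shares of 51.2% and 32.5%. Of the 10 smooth muscle markers, which include the Myh11 and Cnn1 of the rule and summed to 25328 and 21952 CPM in positive against 24353 and 23769 CPM in Hox-zero cells, Acta2, smooth muscle actin, was at 6796 and 5538 CPM in positive cells against 6633 and 6127 CPM in Hox-zero cells of pools A and B. Myocd, the cofactor that drives the contractile programme, was at 436.5 and 828 CPM against 445 and 842 CPM. Des, desmin of the intermediate filaments, differed between pools, at 208.5 and 228.6 CPM in positive against 45.2 and 302.4 CPM in Hox-zero cells. Of lists of other cell types, several were higher in positive cells of both pools. The 8 pericyte markers summed to 1983 and 1402 CPM in positive cells against 1282 and 1152 CPM in Hox-zero cells; Rgs5 alone gave 805 and 321.2 CPM against 284.97 and 254.1 CPM. The 8 cardiomyocyte markers summed to 71.5 and 45.7 CPM against 36.7 and 35.7 CPM, and the 8 skeletal muscle markers to 53.5 and 28.9 CPM against 34.6 and 13.8 CPM. The mast cell and adipocyte lists were higher in both pools too, but on few members. Of the mast cell list only Kit was found in pool B, at 9.09 against 7.85 CPM. Fabp4 and Cidea held nearly all adipocyte counts. Fabp4 was lower in positive cells of pool A (83 against 95.5 CPM) and Cidea in those of pool B (33.9 against 34.5 CPM). Other lists were lower in both pools, such as the fibroblast list, which includes rule genes, at 1148 and 1127 against 1191 and 1335 CPM. The part of these markers in the differences below was not tested.

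Cluster B supplied most of the Hox signal. A gene of cluster B was detected, meaning at least 1 count, in 88.97% of positive cells of pool A and 88.8% of pool B, a gene of cluster A in 51.03% and 48.8%, a gene of cluster C in 9.66% and 7.50%, and a gene of cluster D in 0.69% of pool A and in no cell of pool B. In positive cells Hoxb6 was found in 81 of pool A (55.9%) and in 44 of pool B (55%), and Hoxb5 in 65 (44.8%) and 55 (68.8%). Hoxa5 followed in 35.9% and 43.8%, Hoxb7 in 24.1% and 15%, Hoxa7 in 22.8% and 7.50%, and Hoxb8 in 11.7% and 7.50%. Hoxb9 was detected in 11 and 4 positive cells, never above 6.21 CPM, and the other genes of group 9 reached 20 CPM in 1 cell each for Hoxa9 and Hoxc9, both in pool A. The signal was thus almost entirely in groups 5 to 8.

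Per kilobase of exon, the scale on which genes can be compared, Hoxb6 was the highest in pool A at 48.03 CPM per kb over the summed positive cells, ahead of Hoxb5 at 22.8, Hoxa5 at 17.8, Hoxb7 at 16.5, Hoxa7 at 11.8 and Hoxb8 at 4.75. In pool B the order began with Hoxb5 at 31.7 CPM per kb, then Hoxb6 at 23.9, Hoxa5 at 17.7, Hoxb7 at 10.7, Hoxa7 at 2.63 and Hoxb8 at 1.54. The rank of Hoxb5 and Hoxb6 therefore differed between the pools, and Hoxb8 was the lowest of the 6 in both. In cells with at least 1 count, the median of Hoxb6 was 124.6 CPM in pool A and 61.4 in pool B, and its highest value 585 and 335.01 CPM. For Hoxa5 these medians were 72.2 and 72.4 CPM, and its highest values 349.04 and 188.5 CPM.

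**Figure D2:**
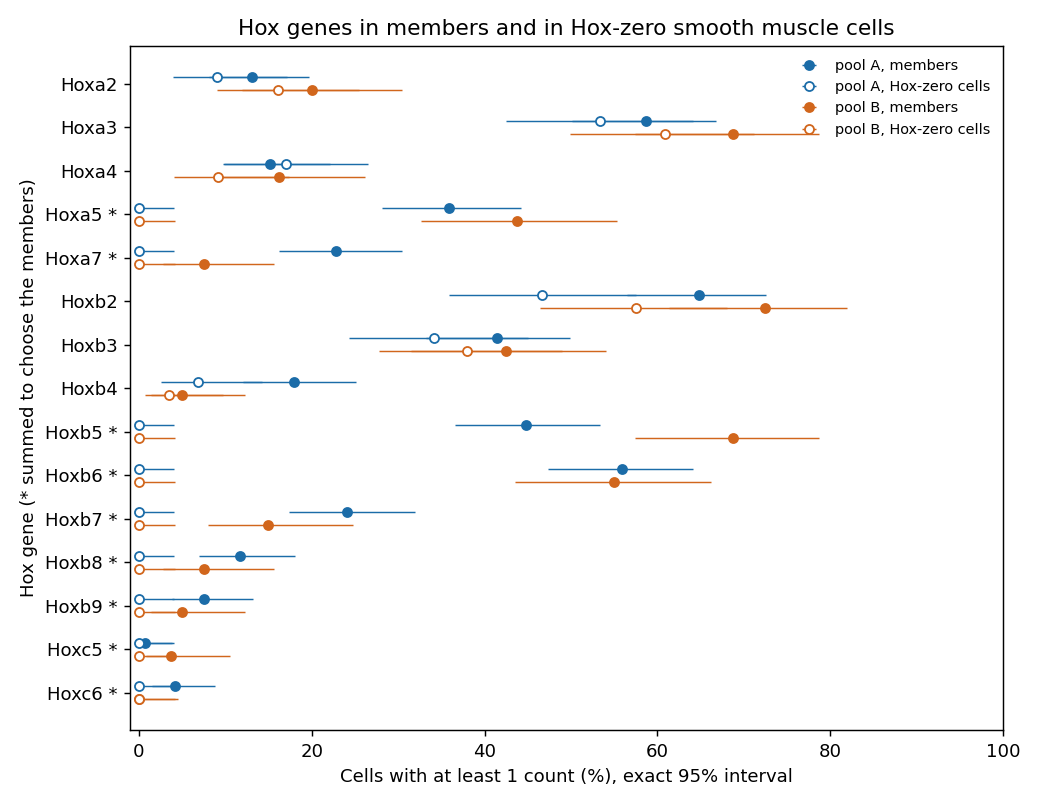
Share of cells with at least 1 count (x axis, %, with exact 95% intervals) for each Hox gene found in at least 3% of a class in either pool, with filled circles for Hox-positive and open circles for Hox-zero cells. The starred genes were summed to choose the cells, so their open circles are at 0 by the rule; the unstarred genes, such as Hoxa3 and Hoxb2, were present in both classes.

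No cell held more than 6 of the 15 genes. Of positive cells in pool A, 49 had 1 of the 15 genes, 47 had 2, 32 had 3, 12 had 4, 4 had 5 and 1 had 6. In pool B, 21 had 1 gene, 40 had 2, 11 had 3, 6 had 4 and 2 had 5. Cells with at least 2 genes made up 66.2% in pool A against 73.8% in pool B, or 42.1% against 40% when a gene had to reach 20 CPM. Pairs were counted over all smooth muscle cells, so that the choice of cells did not set the shares. Hoxb6 reached 20 CPM in 12 of the 30 cells with Hoxa5 at that level in pool B (40%) and in 9.42% of the cells without it, and in pool A in 11 of 37 (29.7%) against 21.3%. Hoxa7 and Hoxb8, on different chromosomes, were found together in 5 of 12 Hoxb8 cells of pool A, where 7.42% of the other cells had Hoxa7, and in 1 of 4 in pool B. Neighbours were not always paired: in pool A, Hoxb6 was present in 24% of cells with Hoxb5 and in 22.04% of cells without, while in pool B these shares were 30.95% and 9.48%.

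By the most posterior group that reached 20 CPM, positive cells of pool A were 44 at group 5, 43 at group 6, 41 at group 7 and 15 at groups 8 or 9. In pool B they were 39, 28, 7 and 4, with most cells at groups 5 and 6. In each pool 2 further positive cells had no single gene at 20 CPM.

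The anterior and the most posterior Hox genes were not part of the rule. Hoxa3 was detected in 58.6% of positive and 53.4% of Hox-zero cells of pool A and in 68.8% and 60.9% of pool B, at 57.2 and 42.9 CPM against 53.03 and 43.7 CPM. Both classes thus carried it at nearly the same level, with the caveat that its annotated span overlaps Hoxa4, Hoxa5 and Hoxa6 on the same strand. Hoxb2 was found in 64.8% against 46.6% of cells in pool A and in 72.5% against 57.5% in pool B, at 78.8 and 81.5 CPM against 48.5 and 45.9 CPM. Its log2 difference of 0.74 did not pass, and over all genes the adjusted p in edgeR was 0.995. Hoxb3 was at 13.3 and 11.2 CPM in positive and 12.5 and 16.9 CPM in Hox-zero cells, and Hoxa4 at 9.78 and 5.92 against 10.2 and 3.15 CPM. Of 12 genes of groups 1 to 4, 7 had enough counts to be tested and none passed, where edgeR called 0% of all 15436 genes. None of the 12 genes of groups 10 to 13 had enough counts; in positive cells none of them exceeded 5.27 CPM in any cell.

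Beyond the Hox genes, no gene passed the main comparison. Counts were summed by pool and class, and the 4 sums were compared with edgeR's quasi-likelihood test, with pool as a block and Benjamini-Hochberg adjustment over 15436 genes; the 22 genes of the rule were not tested. It called 0 genes (0%), the smallest adjusted p was 0.995, and 729 genes had an unadjusted p under 0.05. DESeq2 on the same sums called 78 genes (0.505%), 32 higher (0.207%) and 46 lower (0.298%) in Hox-positive cells. Of these 78, 42 had a mean under 20 CPM, and in 20 of those 42 a single cell held over 50% of the class's counts in a pool. The fit was then repeated on the 7493 genes with a mean of at least 20 CPM over the 4 sums. That floor was chosen after these counts were seen, among several tried. There edgeR called 16 genes (0.214%), 6 higher (0.0801%) and 10 lower (0.133%), and all 16 were among the 78 of DESeq2. Without the pool block, edgeR called 0 of the 7493. Means of at least 5, 10 and 50 CPM gave 11, 22 and 8 calls. Floors of 5, 10, 20 and 50 CPM in 2 of the 4 sums gave 0, 9, 23 and 23. The adjusted p-values at the mean of 20 CPM do not account for this choice among floors.

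The 10 genes that were lower in Hox-positive cells included Hand2, Igfbp2, Popdc2, Frzb, Kcnj15, 2210407C18Rik, Igfbp4, Wif1 and Mfap4. Higher were Tnc, Art3, Casq1, Ccdc3, Gm26776 and Actg2. The adjusted p-values that follow for single genes are those of edgeR on the 7493 genes, unless DESeq2 is named. Over all 15436 genes none of these had an adjusted p under 0.995 in edgeR.

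**Figure D3:**
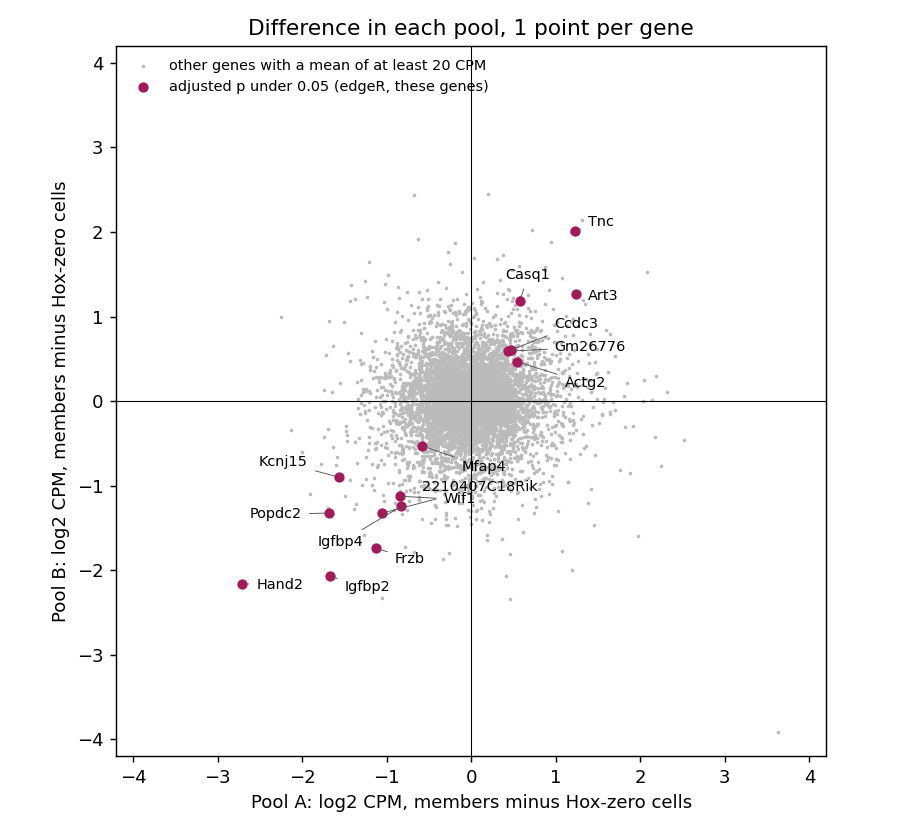
Log2 CPM of Hox-positive minus Hox-zero cells in pool A (x axis) and pool B (y axis), 1 point per gene with a mean of at least 20 CPM, with the called genes named in the text in red. Hand2 lies farthest out among them, at -2.71 and -2.16, and the lone grey point at lower right is Gpx3 at 3.63 and -3.91.

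Hand2, a basic helix-loop-helix factor of neural crest and heart field derivatives, differed most among the called genes. The gene lies on chromosome 8 at 57320983 to 57324633 (GRCm38, plus strand), and the antisense gene Hand2os1 overlaps it. Hand2os1 was itself lower, at 10.4 against 0.529 CPM in pool A and 20.4 against 3.14 CPM in pool B (adjusted p = 0.00165 in DESeq2). Without the strand setting of the counting, reads of the pair cannot be told apart. The level of Hand2 was 62.03 CPM in Hox-zero and 9.57 CPM in Hox-positive cells of pool A, and 59.6 and 13.4 CPM in pool B. It was detected in 43.2% against 11.7% of cells in pool A and in 63.2% against 35% in pool B. Cells with at least 20 CPM of Hand2 were 30.7% of Hox-zero and 4.83% of positive cells in pool A, and 43.7% and 8.75% in pool B. The median cell had 0 CPM in both classes of pool A, with a highest value of 785 among Hox-zero and 425 among positive cells. In pool B the median was 4.70 CPM in Hox-zero and 0 in positive cells, and the highest values were 328.8 and 193.1 CPM. The 2 classes overlap cell by cell, and the Hox-zero sum was higher in each pool. The log2 difference was -2.43 ± 0.35 with an adjusted p of 0.0123 in edgeR. Here and below, ± gives a standard error derived from the F statistic of edgeR's quasi-likelihood test, and not the spread between the 2 pools. After thinning to 100000 counts Hand2 was detected in 37.5% against 9.79% of cells in pool A and 48.2% against 19.2% in pool B.

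Hox-low cells, which entered neither class, had Hand2 at 36.03 CPM in pool A and 57.1 CPM in pool B, above the positive cells of their pool. Within the positive cells, Hand2 was detected in 15.9% of pool A cells whose highest group was 5, 11.6% at group 6, 9.76% at group 7 and 6.67% at groups 8 or 9. In pool B it was detected in 43.6%, 32.1%, 14.3% and 25%, the last 2 shares resting on 7 and 4 cells. Shares thus went down from group 5 to group 7 in both pools, but the level did not in pool A, where it was 8.74, 7.87 and 13.8 CPM at groups 5, 6 and 7. In pool B it was 24.2, 4.18 and 0.40 CPM. These values are a description with no test.

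**Figure D4:**
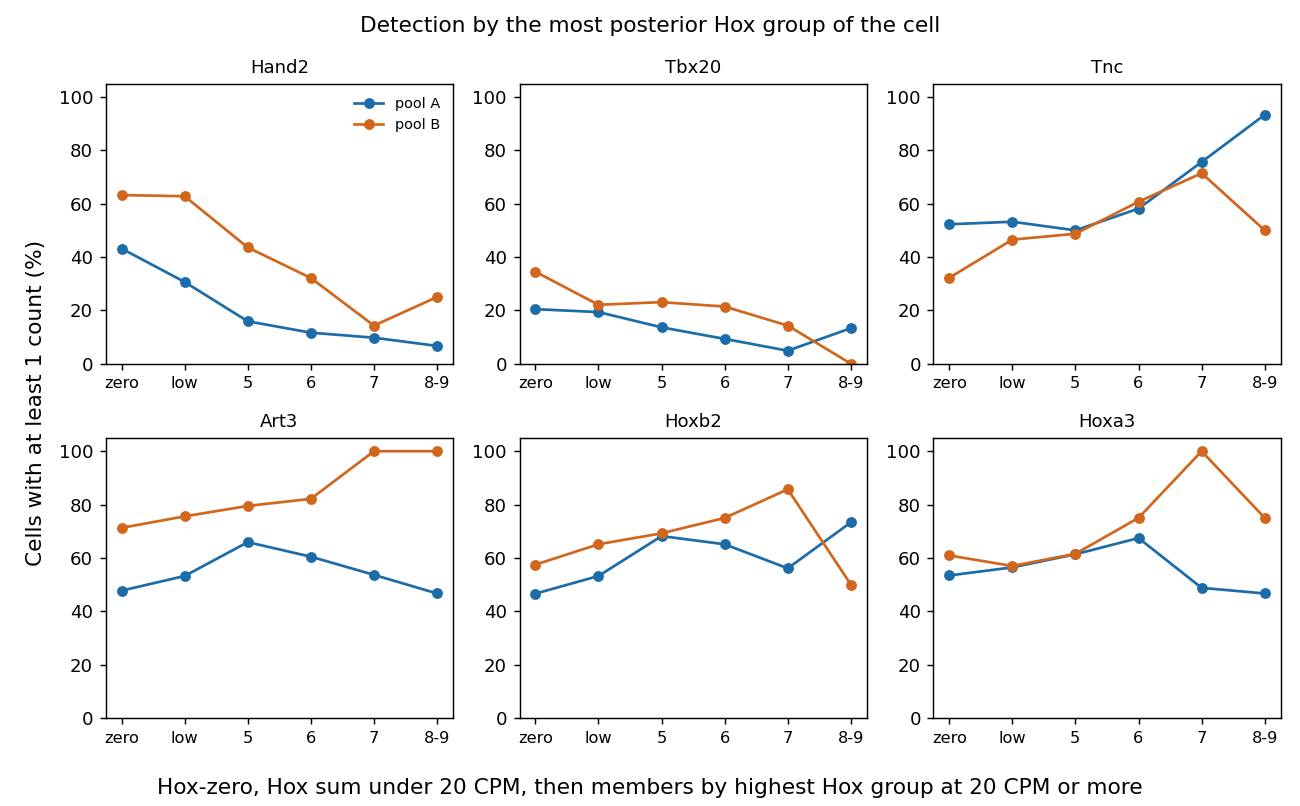
Share of cells with at least 1 count (y axis, %) of 6 genes in Hox-zero cells, Hox-low cells and Hox-positive cells by their highest Hox group at 20 CPM or more (x axis), pool A in blue and pool B in orange. The points for groups 7 and 8-9 of pool B rest on 7 and 4 cells; Hand2 was found in 9.76% and 14.3% of cells at group 7.

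Of the list of neural crest and heart field transcription factors, 24 of 39 were tested and 7 had a mean of at least 20 CPM, of which Hand2 was the 1 that passed, lower. EdgeR called 0.133% of all 7493 genes lower. The median log2 difference of those 7 was -0.005, beside 0.004 over all 7493 genes. DESeq2 over all genes called 2 more of the list lower, Tbx20 and Dlx5, beside 0.298% of all genes. Tbx20, a T-box factor of the heart and its outflow tract, was at 32.4 against 11.98 CPM in pool A and 26.2 against 5.42 CPM in pool B (adjusted p = 0.0364 in DESeq2). Cells with at least 20 CPM of Tbx20 were 19.3% of Hox-zero and 4.83% of positive cells in pool A, and 16.1% and 5% in pool B.

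Of the somite and splanchnic mesoderm factors, 22 of 39 in the table were tested. Of these, 6 had a mean of at least 20 CPM and none of the 6 passed, where edgeR called 0.214% of all 7493 genes. DESeq2 called Pax1 and Nkx2-3 higher and Osr2 lower, beside 0.207% and 0.298% of all genes, and each rested on few cells. In positive cells 1 cell held 51.8% of the Pax1 counts in pool A and 94.2% in pool B, and the corresponding shares for Nkx2-3 were 58.2% and 100%. For Osr2, 1 Hox-zero cell held 100% of the class's counts in pool A and 44.5% in pool B. In the higher class of pools A and B, 4 and 1 cells reached 20 CPM of Pax1, 2 and 1 of Nkx2-3, and 1 and 3 of Osr2.

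Of the lower genes, Igfbp2, Igfbp4, Wif1, Frzb and Mfap4 encode secreted proteins. Igfbp2, a binding protein of insulin-like growth factors, was at 72.3 CPM in Hox-zero and 23.1 CPM in positive cells of pool A, and 118.9 and 28.5 CPM in pool B (log2 difference -1.86 ± 0.25, adjusted p = 0.00959 in edgeR). Its detection differed little, with 36.4% against 31.7% and 55.2% against 55%, and single Hox-zero cells reached 1793 and 2289 CPM. Cells with at least 20 CPM of Igfbp2 were 15.9% of Hox-zero and 11.03% of positive cells in pool A, and 18.4% and 12.5% in pool B. The top Hox-zero cell held 37.5% of the class's counts in pool A and 22.4% in pool B. Igfbp4, another member of that family, was at 215.6 against 123.5 CPM in pool A and 394 against 168.02 CPM in pool B (adjusted p = 0.00959 in edgeR). Positive cells whose highest Hox group was 8 or 9 had 385 CPM of Igfbp4 in pool A (15 cells), above the Hox-zero level, and 14.95 CPM in pool B (4 cells).

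The Wnt list gave 2 lower and no higher genes of 17 with a mean of at least 20 CPM, against 0.214% called over all 7493. Both encode extracellular Wnt antagonists. Wif1 was at 186.7 against 106.05 CPM in pool A and 264.96 against 122.8 CPM in pool B (log2 difference -0.97 ± 0.14, adjusted p = 0.0134 in edgeR), and Frzb at 95.3 against 44.6 and 106.8 against 32.3 CPM (-1.42 ± 0.25, adjusted p = 0.0344 in edgeR). DESeq2 over all genes called 4 of the 30 tested members of the list lower, beside 0.298% of all genes. The 2 more were the receptor Fzd1 and the intracellular antagonist Nkd2. Nkd2 had a mean of 5.28 CPM, and 1 Hox-zero cell held 45.5% of the class's counts in pool A and 57.6% in pool B. The median of the 17 genes was -0.13, and 9 were lower in both pools and 4 higher in both, where over all 7493 genes 27.03% were lower and 23.9% higher in both.

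Of the elastic fibre list, 17 genes had a mean of at least 20 CPM, and 11 of them (64.7%) were lower in both pools and 1 (5.88%) higher, beside 27.03% and 23.9% over all 7493 genes. EdgeR called 1 of the 17, where it called 0.133% of all 7493 genes lower. Mfap4, a microfibril-associated protein, was the 1 that passed: 1078 against 730.3 CPM in pool A and 1482 against 1039 CPM in pool B (log2 difference -0.54 ± 0.08, adjusted p = 0.0134 in edgeR). Fbln5, fibulin 5, which joins elastin to microfibrils, was at 1151 against 881 and 1293 against 951 CPM, with an adjusted p of 0.0725. Eln, elastin itself, was at 2540 against 2744 CPM in pool A and 2086 against 1854 CPM in pool B, so its direction differed between pools. DESeq2 called 4 of the 22 tested lower, beside 0.298% of all genes: Mfap4, Fbln5, Fbln1 and Ltbp2. For Fbln1 1 Hox-zero cell of pool A held 63.4% of the counts.

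Kcnj15 (an inward rectifier potassium channel), Popdc2 (a cyclic AMP-binding membrane protein of striated muscle) and 2210407C18Rik, a protein-coding gene, were among the lower genes too. Kcnj15 was at 142.6 against 48.9 CPM in pool A and 182.9 against 99.2 CPM in pool B. Popdc2 was at 59.1 against 18.8 and 92.7 against 37.4 CPM, and 2210407C18Rik at 118.9 against 58.4 and 248.3 against 100.2 CPM. Their adjusted p-values in edgeR were 0.014, 0.0344 and 0.00959.

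Tnc, tenascin C, a matricellular glycoprotein, differed most among the higher genes that passed. It was at 144.4 CPM in positive and 60.4 CPM in Hox-zero cells of pool A, and 73.9 and 18.1 CPM in pool B. It was detected in 64.8% against 52.3% and 55% against 32.2% of cells, and it reached 20 CPM in 51.03% of positive against 26.1% of Hox-zero cells in pool A, and in 37.5% against 12.6% in pool B. The log2 difference was 1.63 ± 0.25, with an adjusted p of 0.0134 in edgeR. By highest Hox group Tnc was detected in 50%, 58.1%, 75.6% and 93.3% of pool A cells from group 5 to groups 8 or 9. In pool B these shares were 48.7%, 60.7%, 71.4% and 50%, the last 2 resting on 7 and 4 cells. The levels were 90.7, 103.5, 216.7 and 215.7 CPM in pool A. In pool B they were 75.7, 76.7, 84.1 and 12.8 CPM, the last below the Hox-zero level. Of the list of proteoglycans, laminins and matricellular proteins, Tnc was the 1 of 29 that passed, where edgeR called 0.0801% of all 7493 genes higher. Of the 29, 13 (44.8%) were lower in both pools and 5 (17.2%) higher, beside 27.03% and 23.9% over all 7493 genes. DESeq2 called 4 of the 40 tested members higher and 2 lower, beside 0.207% and 0.298% of all genes. Fn1, fibronectin, was at 1299 against 1004 and 959.6 against 711 CPM (adjusted p = 0.107), and Ccn5 at 326.4 against 235.1 and 253.01 against 149.9 CPM (adjusted p = 0.0800 in edgeR). Sparcl1 and Ccn3, matricellular proteins too, were on the other side at log2 differences of -0.47 and -0.47, with adjusted p-values of 0.0537 and 0.0576 in edgeR.

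Art3, a membrane-bound member of the ADP-ribosyltransferase family, was at 143.4 against 59.8 CPM in pool A and 181.6 against 74.7 CPM in pool B (log2 difference 1.26 ± 0.17, adjusted p = 0.00959 in edgeR). It reached 20 CPM in 47.6% of positive and 22.7% of Hox-zero cells of pool A, and in 55% and 24.1% of pool B. By highest Hox group Art3 was at 178.8, 152.4, 115.3 and 36.3 CPM in pool A from group 5 to groups 8 or 9. The last level, over 15 cells, was below that of Hox-zero cells. In pool B these levels were 180.3, 192.7, 158.2 and 150.2 CPM. Casq1, a calcium store protein best known from skeletal muscle, was at 268.3 against 176.5 and 290.6 against 126.1 CPM (0.90 ± 0.15, adjusted p = 0.0224 in edgeR). Actg2, the enteric smooth muscle actin, was at 1063 against 715 and 1217 against 872 CPM, a difference of 0.52 ± 0.08 (adjusted p = 0.0225 in edgeR). It was the 1 gene that passed of 35 in the contractile list, whose median was 0.02, where edgeR called 0.0801% of all 7493 genes higher.

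Ccdc3, a gene for a secreted protein, was at 1295 against 919 CPM in pool A and 1434 against 933 CPM in pool B, and Gm26776, a lincRNA, at 1008 against 734 and 948 against 623 CPM. The 2 genes overlap on opposite strands of chromosome 2, and the sources used here do not give the strand setting of the counting, so they may share reads and are 1 locus rather than 2 independent calls. Mylk2, the skeletal muscle myosin light chain kinase, was at 60.8 against 14.1 and 50.02 against 17.1 CPM, with an adjusted p of 0.0576 in edgeR.

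**Figure D5:**
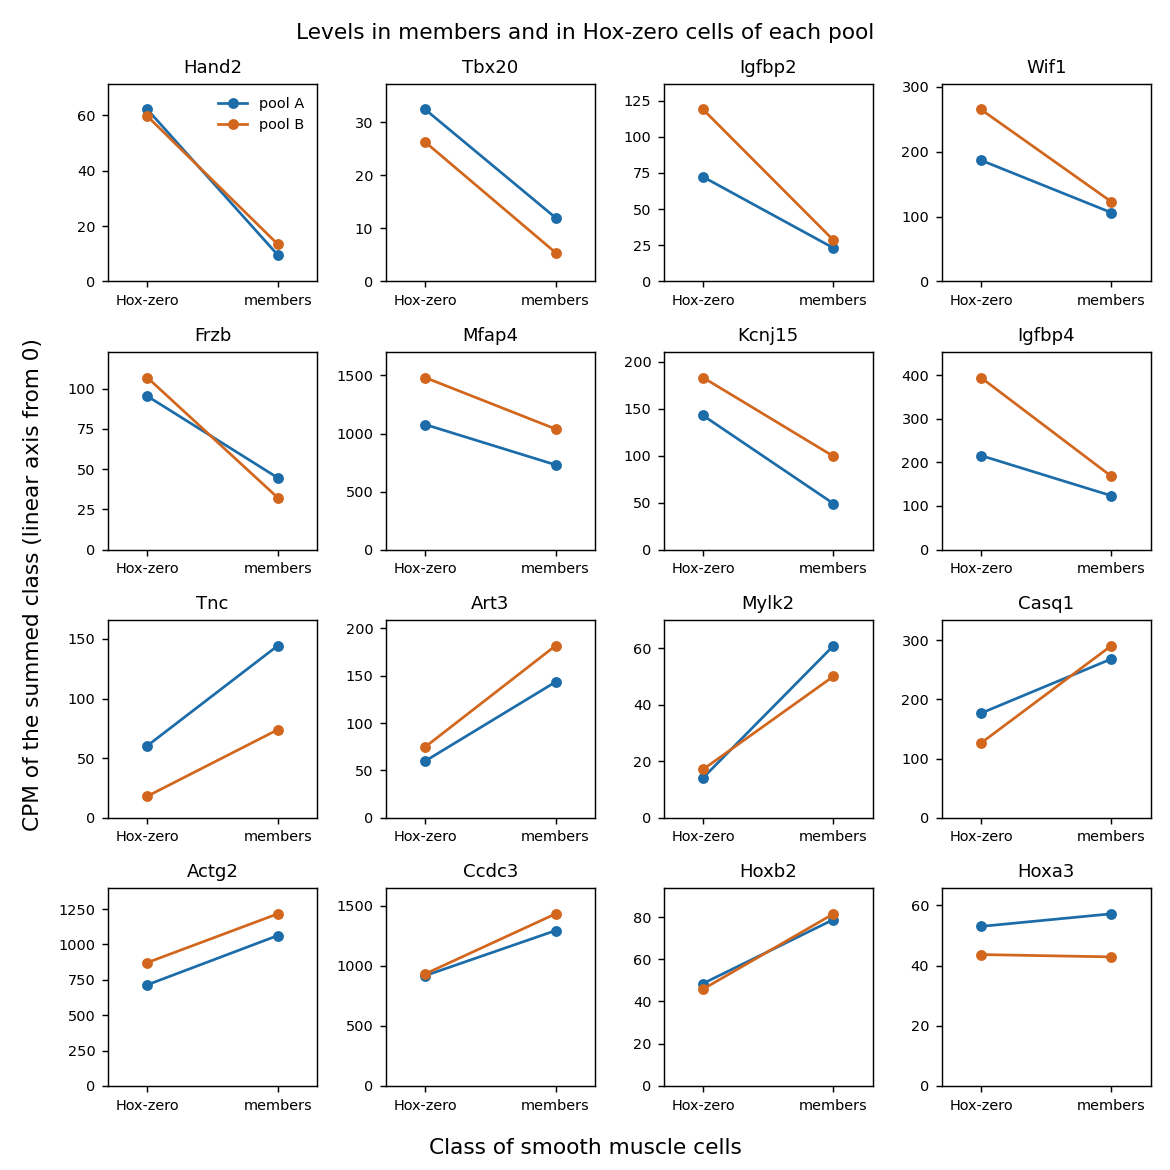
CPM of the summed class (y axis, linear from 0) in Hox-zero and Hox-positive cells (x axis) for 16 genes, pool A in blue and pool B in orange. The lines run the same way in both pools for all genes drawn but Hoxa3, which went from 53.03 to 57.2 CPM in pool A and from 43.7 to 42.9 CPM in pool B; Tbx20, Mylk2, Hoxb2 and Hoxa3 are drawn although edgeR did not call them.

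Of 14 genes that mark other subsets of aortic smooth muscle, Igfbp2 was the 1 that passed, where edgeR called 0.133% of all 7493 genes lower. Wnt16 was at 78.8 against 45.4 and 68.5 against 44.9 CPM in Hox-zero and positive cells, with an adjusted p of 0.616, and Rgs5, whose levels are given above, at log2 0.91 had an adjusted p of 0.138. Tnnt2, cardiac troponin T, went opposite ways: 9.61 CPM in Hox-zero and 38.7 CPM in positive cells of pool A, but 140.5 and 46.8 CPM in pool B. Vcam1, an adhesion molecule, did so too, at 83.3 against 17.8 CPM in pool A and 19.2 against 38.6 CPM in pool B. In Hox-zero cells of pools A and B the top cell held 56.7% and 28.3% of the Vcam1 counts. In positive cells these shares were 42.2% and 46.3%. Vcam1, P2rx1, Sun2, Klhl30, Eln, Pkdcc, Mylk4, Adra1d, Fos and Pcdh7 had log2 differences from -0.62 to 0.48, and none had an adjusted p under 0.838 in edgeR.

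Among genes whose mere presence in a cell went with class, Hoxb5os ranked first, with a phi coefficient of 0.36 in pool A and 0.66 in pool B. It was detected in 40% and 68.8% of positive and in 6.82% and 5.75% of Hox-zero cells. Hoxb5os is annotated antisense to Hoxb5 and Hoxb6 on chromosome 11 (96291024 to 96306910, minus strand); without the strand setting its reads cannot be told from theirs, and its presence is not independent of the rule. The next were 1110038F14Rik (phi 0.28 and 0.22), Sema3a (0.20 and 0.28), Mmd (0.19 and 0.21) and Mylk2 (0.18 and 0.23). Sema3a, a secreted guidance cue, was detected in 30.3% and 27.5% of positive against 12.5% and 6.90% of Hox-zero cells.

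EdgeR called 0% of all 15436 genes, and 0.214% of the 7493 with a mean of at least 20 CPM. Beside those shares, it called no member of the pathway lists around the Hox genes. This held for 11 Hox cofactors, of which 4 had a mean of at least 20 CPM, and for 20 tested chromatin and upstream regulators of Hox genes (11 at that mean). It also held for 13 tested genes of the retinoid pathway, the signal that sets anterior Hox boundaries in the embryo. TGF-beta and BMP genes (31 at that mean), Notch genes (10), collagens (15), vasoactive receptors (15), ion channels (25), immediate early genes (24), genes of modulated smooth muscle (16) and cell cycle genes (6) likewise had no call among the 7493 genes. At shares of 0% and 0.214%, lists of this length would mostly have no call. A p above the threshold with 2 pools does not show that these genes were equal in the classes.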

How the data were processed

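The authors deposited whole-number read counts of 46517 gene identifiers in 675 cells, 367 of pool A and 308 of pool B. The submitters' processing notes name Subread, featureCounts, Bowtie2, Bowtie and bcl2fastq, and the build GRCm38 (mm10), without versions or the role of each. Symbols came from GENCODE M21. Cells had 51886 to 713700 counts. Smooth muscle cells numbered 295 in pool A and 253 in pool B: 225 Hox-positive (145 and 80), 175 Hox-zero (88 and 87) and 148 Hox-low (62 and 86). The members, lists and tests were chosen with earlier results of these data known. Classes were summed per pool and tested with edgeR 4.0.16 (TMM, filterByExpr, pool block, 1 residual degree of freedom), DESeq2 1.42.0 and limma 3.58.1, at an adjusted p of 0.05. The labels give the same mice and plate for both classes of a pool, which pairs them; pool differences of the classes correlated with r = 0.515 across 7498 genes. After the main count of 0 was seen, floors of 5, 10, 20 and 50 CPM in 2 of the 4 sums, robust dispersions and limma were tried, and then floors on the mean; the mean of 20 CPM was kept. Named were the 12 leading genes per direction with 20 CPM in the higher class of both pools, every gene called at the mean floor, leading members of each list, all genes of the subset list and the 5 highest phi coefficients; some items under these rules are not reported here, and genes named beyond them, such as Nkx2-3, Hand2os1, Des, Dlx5, Nkd2, Fbln1, Fzd1, Ltbp2 and Gpx3, were chosen after their values were seen. No doublet caller was run, and 0 cells had counts identical to another cell's. The scripts were tested on simulated sums.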

Additional observations from a re-analysis of the deposited data

Results flagged for a closer look

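Cells left out of the smooth muscle class because they carried fibroblast genes had a Hox sum of at least 20 CPM too: 17 of 46 in pool A (36.96%) and 8 of 38 in pool B (21.1%). The 46 and 38 cells lie outside the comparison above, and their median depth was 159618 and 154888 counts. Pool A had the higher share here, as it did among smooth muscle cells (49.2% and 31.6%). Of cells with at least 100 CPM of Cdh5, 14 of 25 reached that sum.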

How the results depend on the processing

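The count of 0 genes over all tested genes stayed at 0 in edgeR with RLE size factors, no filter, no replicate block, deep cells, thinned cells, the 100 CPM threshold, the wider comparison class and robust dispersions, and in limma. It was 78 with DESeq2. Floors tried after that count was seen gave 11, 22, 16 and 8 genes at a mean of 5, 10, 20 and 50 CPM, and 0, 9, 23 and 23 at 5, 10, 20 and 50 CPM in 2 of the 4 sums; fewer genes were tested in each, and all the calls at 9 of 9756 genes were among the 16. At a mean of 20 CPM the 16 calls became 33 with DESeq2, 27 with RLE, 71 with thinned cells, 33 with the 100 CPM threshold and 35 with all cells under 20 CPM as the comparison class. All 16 were called in each of these, and 15 of them among 17 in cells with at least 200000 counts. Without the replicate block, which drops the pairing by pool, 0 were called. The cause of these shifts was not tested. Leaving out a pool leaves no residual degree of freedom, so no count could be had.

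Taken from 100 CPM, the share of Hox-positive cells was 37.3% in pool A against 22.5% in pool B, and from any count 70.2% and 65.6%. Cells with at least 2 Hox genes were 42.1% and 40% when a gene had to reach 20 CPM; these shares follow from the threshold.

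The genes called at the mean floor came from a fit over both pools of these same cells, which favours the same direction in each. Their steady direction is thus no separate support. Of 77 named genes, none of those called at the mean floor changed direction. Others did between the pools: with pool B left out and with pool A left out, the log2 differences were 0.083 and -0.042 for Hoxa3, -0.084 and 0.88 for Hoxa4, 0.064 and -0.61 for Hoxb3, -0.29 and 0.11 for Hoxb4, 2.90 and -0.72 for Hoxaas3, 1.98 and -1.60 for Tnnt2, 0.17 and -0.28 for Adra1d, -2.25 and 0.99 for Vcam1, -0.097 and 0.10 for Pcdh7, 0.39 and -0.19 for Pkdcc, 0.085 and -0.19 for Eln, and 0.34 and -0.41 for Fos. With thinned cells the sign turned for Hoxa3 (-0.070), Hoxb3 (0.073), Adra1d (0.049), Pcdh7 (-0.068), Mylk4 (-0.056) and Sun2 (-0.015). Against all cells under 20 CPM it turned for Hoxa4 (-0.30), Tnnt2 (-0.0077), Pcdh7 (-0.087), Fos (0.082) and Mylk4 (-0.11). From 100 CPM it turned for Hoxb4 (0.12), Tnnt2 (-0.41) and Pcdh7 (-0.019), and without the replicate block for Tnnt2 (-0.84), Pcdh7 (-0.033) and Fos (0.015). The cause was not tested, and edgeR called none of these genes.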
